A study of Mus musculus with 2 samples.

Results

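The tripartite motif (TRIM) genes encode a large family of proteins, most of them E3 ubiquitin ligases, named for a RING finger, 1 or more B-box domains and a coiled coil at the N terminus. Members differ mainly in what follows the coiled coil, and many end in a PRY-SPRY domain that binds their targets. A subset is induced by type I interferon and acts in antiviral defence, where members ubiquitinate or bind RNA and DNA sensors, their adaptors or viral capsids. Others repress transcription, sit in the endoplasmic reticulum membrane, or work in cell division and in muscle.

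TRIM transcripts were examined in mononuclear phagocytes of B16 melanoma, a transplanted mouse melanoma line, sorted as MerTk+ CD64+ cells from tumors of C57Bl/6 mice. Unique molecular identifiers (UMIs, 1 per captured transcript) were counted from the 3′ ends of transcripts in single cells. There was 1 library from Fcmr+/+ mice and 1 from Fcmr-/- mice, which lack Fcmr, a receptor for soluble IgM, and the number of mice in each was not given in the sources used here. Each genotype is thus a single library: the genotypes were not tested against each other, and genotype and library cannot be told apart. Intervals below are exact 95% intervals and cover counting error only.

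Members were the genes whose symbol is Trim followed by a number and at most 1 letter, with UMIs in at least 3 cells. Of 67 such symbols listed, 49 were members, among 16112 genes that passed the same rule. They fall into 14 interferon-responsive members, grouped from general knowledge of the family, and 35 others. The 18 that were not members include 13 without a UMI. Among these is Trim34b, the only symbol of the interferon-responsive list that dropped out, for which 3 counts would be 0.0234 CPM (UMIs of a gene per 1000000 UMIs) in Fcmr+/+ and 0.0241 CPM in Fcmr-/- cells. Levels are not compared between genes. The mean CPM of the 2 libraries was at least 1 for 36 members, all 14 interferon-responsive ones and 22 others, and at least 5 for 26.

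After the study's filters 6352 Fcmr+/+ cells with 128408544 UMIs and 7999 Fcmr-/- cells with 124630621 UMIs were kept, with medians of 17973.5 and 12911 UMIs per cell. The libraries shared 73 cell barcodes. Fcmr itself had 7 and 6 UMIs, too few to check the genotype. Transcripts of the sorting markers were present: Mertk at 62.8 and 48.7 CPM, and Fcgr1, which encodes CD64, at 250 and 394 CPM. Markers of T and NK cells summed to 1.11 CPM in the Fcmr+/+ and 15.9 CPM in the Fcmr-/- library, with no marker of 8 at 0 in either, and Ifng had 1 and 41 UMIs. Melanoma markers summed to 40.2 and 63.6 CPM, neutrophil markers to 31.5 and 48.4 CPM and dendritic cell markers to 8.43 and 13.2 CPM. In pooled values, fewer cells of a type and less RNA per cell cannot be told apart.

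Of the 14 interferon-responsive members, 9 lie side by side within 289 kb of mouse chromosome 7 (chr7:104218793-104507849, GRCm38): Trim6, Trim34a, Trim5, Trim12a, Trim12c, Trim30b, Trim30c, Trim30a and Trim30d. The other 5 lie outside this stretch. Trim21 is at lower coordinates of the same chromosome (chr7:102557921-102565486, minus strand). On other chromosomes are Trim25 (chr11:88999376-89020293, plus strand), Trim26 (chr17:36837134-36859398, plus strand), Trim56 (chr5:137105644-137116209, minus strand) and Trim14 (chr4:46493781-46536141, minus strand). Counts of some of the chromosome 7 genes are less certain, because they share sequence with a relative. In the last 500 bases of the transcripts, 15.4% of 75-base stretches of Trim30d also occur in Trim30a, 17.6% of those of Trim34a in Trim34b, and 20.3% of those of Trim5 in Trim12c or Gm4992. For Trim12c the share was 4.01%, with the gene models Gm20554 and Gm27995, and for Trim6, Trim12a, Trim30a, Trim30b and Trim30c it was 0.

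Interferon-induced genes are classically bound through the interferon-stimulated response element (ISRE) and the gamma-activated sequence (GAS). The letters GAAANNGAA (a core of the ISRE) and TTCNNNGAA (a core of the GAS) were looked for on both strands of RefSeq promoters, 250 bases before to 50 after each start on GRCm38.p6. Of the 49 members, 38 had a promoter in the table and 11 had none: Trim3, Trim8, Trim11, Trim14, Trim16, Trim17, Trim29, Trim33, Trim35, Trim36 and Trim65. The ISRE core was in 10 of 14 promoters of interferon-responsive members (9 of 13 genes), in 2 of 37 promoters of the others (Trim2 and Trim7), and in 8.56% of all 32851 promoters. The GAS core was in 1 of 14 (Trim30c), in 2 of 37 (Trim45 and Trim46) and in 8.30% of all promoters. A match describes letters and was not shown to be a bound site.

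The 29 bases around each ISRE core of the interferon-responsive members are shown because these genes share a high level in the interferon-high cells described below, and so that the relatives on chromosome 7 can be compared. All are written 5′ to 3′ on the gene's strand, with the core in capitals. Cores on the opposite strand read TTCNNTTTC, and Trim21 and Trim26 have 2 overlapping cores.
Trim30a (chr7:104465210-104465238): gttctttagtTTCTTTTTCtcagttcctg
Trim30a, second start (chr7:104446104-104446132): tgtttttagtTTCTTTTTCtcagttcctg
Trim30d (chr7:104507871-104507899): gttctttagtTTCTTTTTCtcagttcctg
Trim12a (chr7:104315466-104315494): gagttgtggtTTCTGTTTCatttccagag
Trim12c (chr7:104353359-104353387): gagttgtggtTTCTGTTTCatttccagct
Trim5 (chr7:104288136-104288164): gagttgtggtTTCTGTTTCatttccagag
Trim34a (chr7:104244458-104244486): ggtttggagtTTCAGTTTCttttctctgc
Trim21 (chr7:102565448-102565476): ctgagagGAAACTGAAAGTGAAatttgga
Trim25 (chr11:88999384-88999412): gcccctcctgTTCAGTTTCgattccttcc
Trim26 (chr17:36836980-36837008): ttccgatTTCACTTTCCTTTTCtcgggcc
The stretches of Trim12a and Trim5 were identical, as were those of Trim30d and the first Trim30a start. The windows of Trim6, Trim30b, Trim30c and Trim56 held no ISRE core. Over both libraries, these members too had their highest level in the interferon-high cells. Whether the level goes with the core was not tested.

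TRIM transcripts of the chromosome 7 cluster were higher in the Fcmr-/- library, 6 of 9 of them by at least 1.5-fold. Outside the cluster no member with a mean of at least 1 CPM was 1.5-fold higher. Of the interferon-responsive members there, Trim21, Trim14 and Trim56 were still higher beyond counting error. The median log2 ratio of Fcmr-/- to Fcmr+/+ CPM was 0.57 over the 14 interferon-responsive members and -0.12 over the 22 others, beside -0.00 over all 10713 genes compared. At least 1.5-fold higher were 6 of the 14 and none of the 22, against 3.25% of all genes. At least 1.5-fold lower were none of the 14 and 2 of the 22, against 3.31% of all genes. All 9 members of the chromosome 7 cluster had a ratio above 0, with a median of 0.74. In the same libraries, 24 of 48 genes of a type I interferon list were at least 1.5-fold higher, with a median of 0.59. Of a type II interferon list, 24 of 28 were, with a median of 1.24. Neither list holds a TRIM gene. Both were chosen with earlier results of these data known, so their counts are a description and no independent check.

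**Figure D1:**
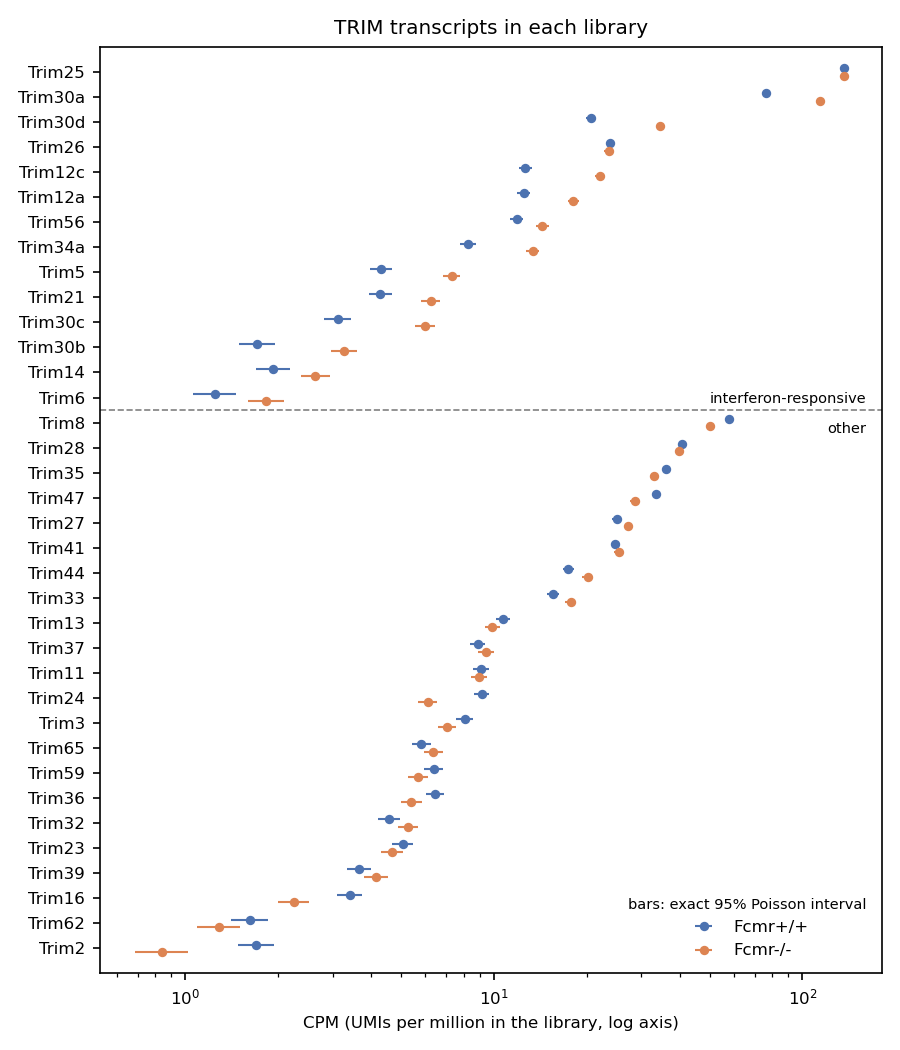
Points give CPM (log axis) of the 36 members with a mean of at least 1 CPM in the Fcmr+/+ (blue) and Fcmr-/- (orange) library, with exact 95% Poisson intervals. Most interferon-responsive members (above the dashed line) sit further right in orange, for example Trim30a at 76.3 and 114 CPM, while Trim25 and Trim26 overlap.

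Trim30a (chr7:104409025-104465193, minus strand) restrains Toll-like receptor signalling to NF-kB. It was at 76.3 CPM in Fcmr+/+ and 114 CPM in Fcmr-/- cells, from 9798 and 14194 UMIs, a log2 ratio of 0.58 (0.54 to 0.62) that lies just under the 1.5-fold limit. Its neighbour Trim30d was at 20.7 and 34.5 CPM (log2 ratio 0.74, 0.67 to 0.81). The scarcer relatives had wider intervals but larger ratios: Trim30c was at 3.12 and 5.99 CPM (0.94, 0.76 to 1.12).
Trim30b was at 1.71 and 3.27 CPM (0.93, 0.69 to 1.17). Every member of the Trim30 group was thus higher in the Fcmr-/- library beyond counting error.

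Trim5, Trim12a and Trim12c are the mouse relatives of human TRIM5, a restriction factor that recognizes retroviral capsids. Trim12c was at 12.7 CPM in Fcmr+/+ and 22.1 CPM in Fcmr-/- cells (log2 ratio 0.80, 0.71 to 0.89). Trim5 was at 4.31 and 7.30 CPM (0.76, 0.61 to 0.92), and Trim12a at 12.5 and 18.1 CPM (0.53, 0.44 to 0.63), which did not reach 1.5-fold. The intervals of all 3 lay above 0. Trim34a was at 8.24 and 13.4 CPM (0.70, 0.59 to 0.81). Trim6, which assembles unanchored ubiquitin chains used by the kinase IKKε, was at 1.25 and 1.83 CPM (0.55, 0.26 to 0.85).

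None of the 5 interferon-responsive members elsewhere in the genome reached 1.5-fold, against 6 of the 9 in the chromosome 7 cluster. Of those 6, Trim30d, Trim34a, Trim5 and Trim12c share sequence near the 3′ end with another gene. The ranges also met: Trim12a (0.53) and Trim6 (0.55) of the cluster were close to Trim21 outside it. Trim21, a cytosolic receptor for antibody-coated viruses, was at 4.29 CPM in Fcmr+/+ and 6.25 CPM in Fcmr-/- cells (log2 ratio 0.54, 0.38 to 0.70). Trim14, a mitochondrial adaptor of antiviral signalling, was at 1.92 and 2.64 CPM (0.46, 0.21 to 0.70). Trim56, linked to STING signalling, was at 11.9 and 14.4 CPM (0.28, 0.18 to 0.37). The remaining 2 were level between the libraries. Trim25, which ubiquitinates the RNA sensor RIG-I, was at 136 and 137 CPM, from 17513 and 17059 UMIs (0.01, -0.03 to 0.04). Trim26 was at 23.9 and 23.6 CPM (-0.01, -0.09 to 0.06).

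Among the 22 others, 14 had a ratio below 0 and 8 above, and 20 lay within 1.5-fold. Trim2, an NHL-repeat ligase known from neurons, had the lowest ratio and was at 1.70 CPM in Fcmr+/+ and 0.842 CPM in Fcmr-/- cells, from 218 and 105 UMIs (log2 ratio -1.01, -1.36 to -0.67). Trim16, which acts in the response to damaged lysosomes, was at 3.41 and 2.25 CPM (-0.60, -0.82 to -0.38). It overlaps Fbxw10 on the same strand, and 19.4% of its 75-base stretches near the 3′ end also occur there, so its count is uncertain.

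The nuclear members with a PHD finger and bromodomain did not share a direction. Trim24, a coregulator of nuclear receptors, was at 9.12 and 6.11 CPM (-0.58, -0.71 to -0.44), just inside the 1.5-fold limit. Trim28 (KAP1), the corepressor that silences endogenous retroviruses with zinc-finger proteins, was at 40.8 and 39.9 CPM (-0.03, -0.09 to 0.02). Trim33, a regulator of Smad4 signalling, was at 15.6 and 17.8 CPM (0.19, 0.10 to 0.28). The interval of Trim28 included 0.

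Of the remaining members with a mean of at least 5 CPM, those lower in Fcmr-/- cells beyond counting error were Trim8, Trim35, Trim47, Trim13, Trim3, Trim59 and Trim36. Trim8, a regulator of cytokine and NF-kB signalling, was at 58.0 CPM in Fcmr+/+ and 50.1 CPM in Fcmr-/- cells. Trim35 was at 36.2 and 33.0 CPM, and Trim47 at 33.5 and 28.6 CPM. The ligases Trim13 and Trim59, anchored in the endoplasmic reticulum membrane, were at 10.7 and 9.89 CPM and at 6.38 and 5.67 CPM.
Trim3, an NHL-repeat protein, was at 8.04 and 7.04 CPM, and Trim36, a microtubule-binding member, was at 6.45 and 5.41 CPM. The ratios of these 7 ran from -0.25 (Trim36) to -0.12 (Trim13) on the log2 scale, small beside the 1.5-fold limit.

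Trim27 (25.0 and 27.3 CPM) and Trim44 (17.4 and 20.2 CPM), an atypical member without a RING finger, were higher in Fcmr-/- cells beyond counting error, with log2 ratios of 0.13 and 0.21. The intervals of Trim41 (24.8 and 25.4 CPM), Trim37 (8.85 and 9.44 CPM), Trim11 (9.07 and 8.96 CPM) and Trim65 (5.83 and 6.36 CPM) included 0. Trim47 and Trim65 overlap on the same strand, so reads between them may not be separable. Between 1 and 5 CPM, Trim32, Trim23, Trim39 and Trim62 had log2 ratios of 0.21, -0.11, 0.18 and -0.34.

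**Figure D2:**
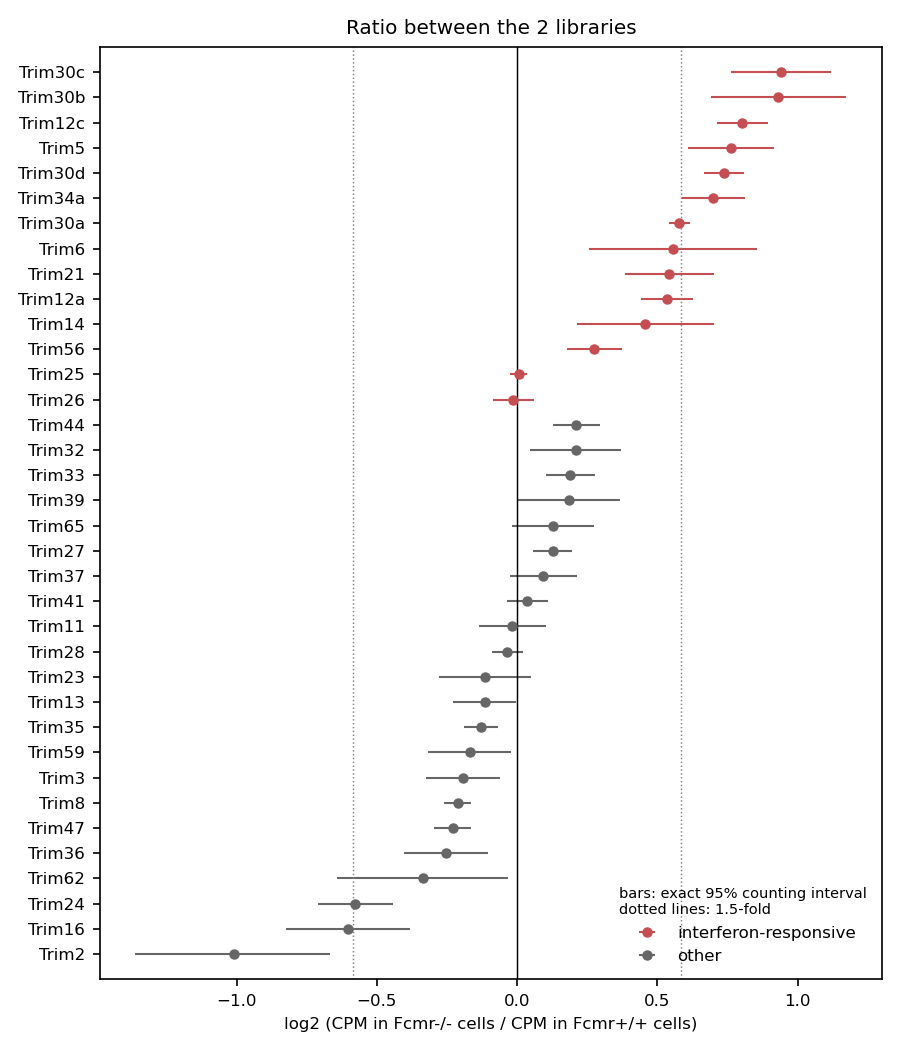
Points are log2 ratios of Fcmr-/- to Fcmr+/+ CPM for the 36 members, with exact 95% counting intervals, interferon-responsive members in red and others in grey, and dotted lines at 1.5-fold. The red points run from -0.01 (Trim26) to 0.94 (Trim30c), and the grey points from -1.01 (Trim2) to 0.21 (Trim44).

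The 13 members with a mean below 1 CPM were Trim7, Trim68, Trim45, Trim69, Trim46, Trim29, Trim63, Trim17, Trim71, Trim10, Trim9, Trim66 and Trim72. None of them is in the group called interferon-responsive here. They include members known from muscle (Trim63, also called MuRF1, and Trim72, also called MG53), at 0.101 and 0.136 CPM and at 3 and 0 UMIs. Trim72 had too few UMIs for a ratio, and 11 of the rest had intervals that included 0. The exception, Trim69, was picked out after its values were seen, with 87 UMIs in Fcmr+/+ and 25 in Fcmr-/- cells (0.678 and 0.201 CPM, log2 ratio -1.76, -2.46 to -1.10).

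Genes that TRIM proteins act with were listed by pathway. Of 23 such genes, 10 were at least 1.5-fold higher in Fcmr-/- cells, beside 3.25% of all genes, and none lower, beside 3.31%. All 5 genes of ISG15 conjugation were among them, with Isg15, the ubiquitin-like protein, at 150 and 275 CPM (log2 ratio 0.87). On the RNA and DNA sensing side, 2 of 9 were, Irf7 (69.7 and 139.5 CPM, 1.00) and Ikbke (25.0 and 37.9 CPM, 0.60). Isg15 and Irf7 were also among the markers listed for type I interferon-high cells, so the count is a description. Ddx58, which encodes RIG-I, the target of Trim25, was at 20.5 and 28.5 CPM (0.48), and Traf6 had the lowest ratio (22.9 and 17.1 CPM, -0.42).
None of the 5 partners of Trim28 in heterochromatin (Setdb1, Cbx1, Cbx3, Cbx5, Atrx) passed 1.5-fold. Of 4 genes listed for antibody recognition and STAT signalling, 3 were at least 1.5-fold higher, among them Fcgr1 (250 and 394 CPM, 0.66). The exception was Vcp, the unfoldase used by Trim21, at 244 and 246 CPM. Of the family members that carry other symbols, Pml (TRIM19) was at 13.9 and 18.2 CPM (0.39) and Mid1 at 26.7 and 20.4 CPM (-0.39), while Mid2 had 7 and 12 UMIs.

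The cells of both libraries were clustered together without any TRIM gene among the variable genes, which gave 11 clusters. Cluster 9 had the highest summed level of a list of 49 type I interferon genes that holds no TRIM gene (18383 CPM, against 1907 to 5602 CPM in the others). It is called type I interferon-high-like and was led by Rsad2, Ifit1bl1, Cmpk2 and Ifit3. It held 225 Fcmr+/+ cells (3.54% of that library) and 618 Fcmr-/- cells (7.73%). Cluster 5, led by Cenpf, Nusap1 and Prc1, is called dividing-like (729 and 741 cells), and cluster 8, led by Iigp1, Serpina3g and Cxcl9, type II interferon-high-like (27 and 905 cells). That name rests on 7 markers, which summed highest there (1249 CPM), whereas the longer list of 30 type II interferon genes was higher in clusters 1 (6893 CPM) and 3 (6719 CPM) than in cluster 8 (5905 CPM). The others are given by number. Clusters and their contrasts are described with no test, since cells of 1 library are not replicates.

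Cluster levels given without a library, here and below, are from both libraries pooled. By these, each of the 14 interferon-responsive members had its highest CPM in cluster 9. The same held for none of the 22 others and for 9.78% of all genes compared. In Fcmr+/+ cells alone it did not hold for Trim5, at 4.68 CPM in cluster 9 (13 UMIs) and 5.08 CPM in cluster 5 (111 UMIs). The highest level was a median of 6.56 times the lowest among the 11 clusters for the interferon-responsive members and 2.38 times for the others, beside 2.08 times for all genes. Trim30a ran from 40.4 CPM in cluster 11 to 126 CPM in cluster 3 and 303 CPM in cluster 9. Trim30d ran from 9.25 CPM in cluster 11 to 120.1 CPM in cluster 9, and Trim30c from 0.406 to 21.4 CPM in the same clusters. After cluster 9, the next highest was cluster 3 for Trim30a, Trim30d, Trim12c, Trim34a and Trim5, and cluster 8 for Trim12a, Trim56, Trim21, Trim30c and Trim14. Both of those clusters came almost wholly from the Fcmr-/- library (1554 of 1617 and 905 of 932 cells). Against other Fcmr-/- cells, the median log2 ratio in cluster 8 was 0.13 for the interferon-responsive members. It was 0.14 for the other members and 0.06 for all genes.

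**Figure D3:**
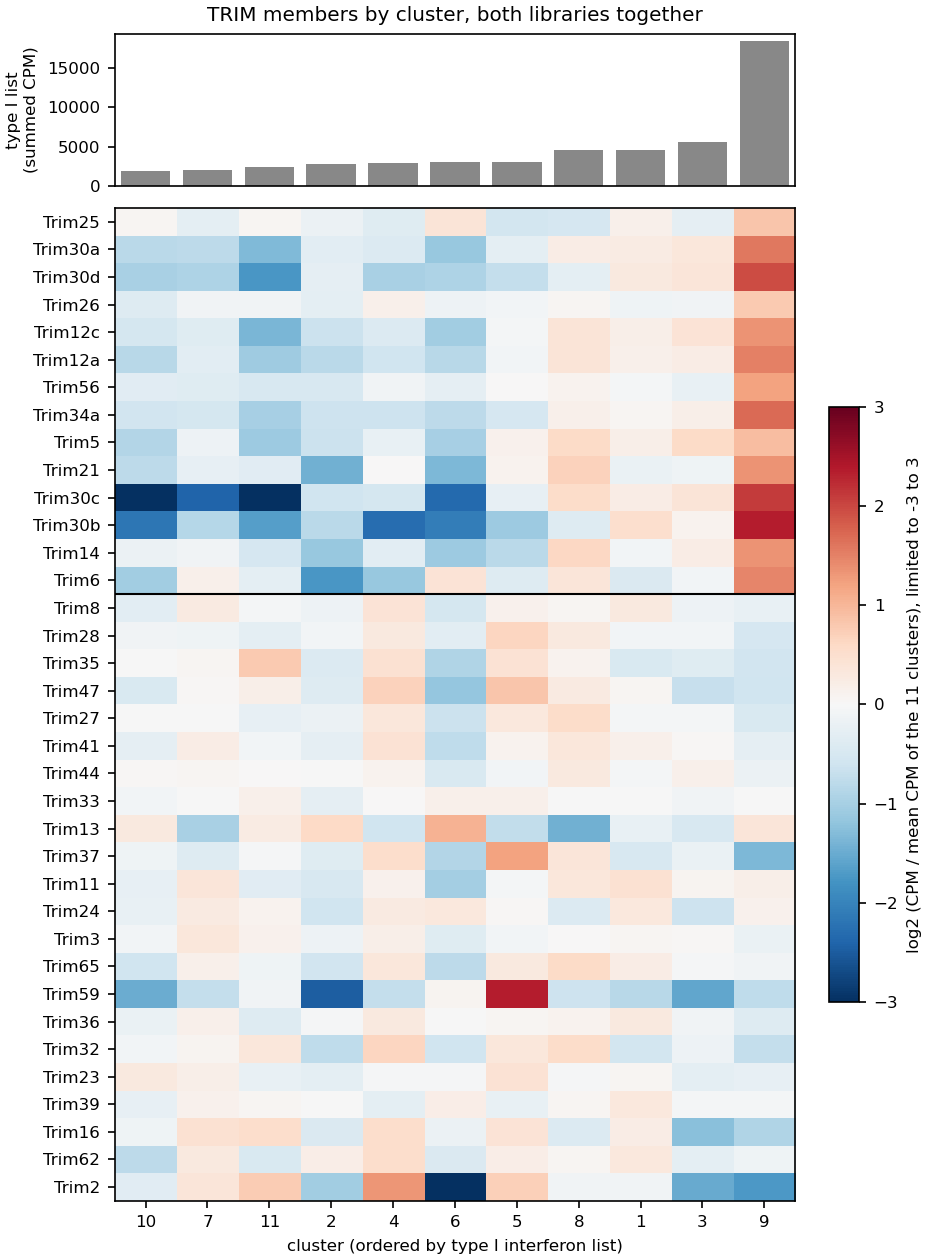
The heat map gives log2 of each member's CPM, both libraries pooled, over its mean across the 11 clusters, limited to -3 to 3. Clusters are ordered by the summed CPM of the type I interferon list (bars). All 14 interferon-responsive members (above the line) are reddest in cluster 9, whereas Trim59 and Trim37 are reddest in cluster 5 and Trim13 in cluster 6.

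Across the 11 clusters, Spearman correlations of the interferon-responsive members with that list ranged from 0.15 (Trim25) to 0.92 (Trim30c) with a median of 0.76, and the median of the others was -0.04. It is a description over clusters that share 2 libraries. Trim25 departed from its group: it was at 267 CPM in cluster 9 but next highest, at 194 CPM, in cluster 6, and lowest in the dividing-like cluster 5 at 102 CPM.

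In cluster 9 against all other cells of the same library, the interferon-responsive members had a median log2 ratio of 1.77 in Fcmr+/+ and 1.44 in Fcmr-/- cells. The others had medians of -0.36 and -0.33, and all genes of -0.17 and -0.13. The size of the interferon-responsive median depended on the clustering: for the cluster highest in the type I interferon list it was 1.11 and 0.52 when interferon genes were left out of the clustering, and in Fcmr-/- cells 0.71 at a lower resolution and 0.82 with more principal components. At least 1.5-fold higher were 13 of 14 interferon-responsive members in Fcmr+/+ cells (12.2% of all genes) and 14 of 14 in Fcmr-/- cells (10.2%). The cells of cluster 9 were shallow, with median UMIs of 9701 and 8223.5. In Fcmr-/- cells the hemoglobin gene Hbb-bt had the highest ratio of all genes there (5.81).

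Trim30b had the largest ratio, at 13.3 CPM in cluster 9 and 1.46 CPM in other Fcmr+/+ cells (log2 ratio 3.19, 2.64 to 3.71), and at 16.7 and 2.56 CPM in Fcmr-/- cells (2.71, 2.37 to 3.04). Trim30a was at 246 and 72.5 CPM in Fcmr+/+ (1.76, 1.65 to 1.87) and at 329 and 103 CPM in Fcmr-/- cells (1.68, 1.61 to 1.75). For each of these, the ratio was smaller in Fcmr-/- cells, with overlapping intervals. Trim34a was at 30.9 and 7.74 CPM in Fcmr+/+ (2.00, 1.66 to 2.32) and at 43.5 and 11.8 CPM in Fcmr-/- cells (1.88, 1.69 to 2.07). Trim14 was at 7.20 and 1.81 CPM in Fcmr+/+ (1.99, 1.26 to 2.65) and at 6.12 and 2.46 CPM in Fcmr-/- cells (1.32, 0.79 to 1.81). Trim21 was at 14.0 and 4.08 CPM in Fcmr+/+ (1.78, 1.27 to 2.25) and at 14.2 and 5.84 CPM in Fcmr-/- cells (1.28, 0.94 to 1.60). Trim34a, Trim14 and Trim21 too had smaller ratios in Fcmr-/- cells, with overlapping intervals.
Trim25 and Trim26, level between the libraries, were still higher in cluster 9. Trim25 was at 298 and 133 CPM in Fcmr+/+ cells (1.17, 1.06 to 1.27) and at 253 and 131 CPM in Fcmr-/- cells (0.95, 0.88 to 1.03). Its intervals in the libraries did not overlap. Trim26 was at 51.8 and 23.3 CPM in Fcmr+/+ (1.16, 0.90 to 1.40) and at 37.5 and 22.9 CPM in Fcmr-/- cells (0.71, 0.51 to 0.90). Trim5 was the member that did not reach 1.5-fold, at 4.68 and 4.30 CPM in Fcmr+/+ cells (0.12, -0.80 to 0.91), beside 13.5 and 6.98 CPM in Fcmr-/- cells (0.95, 0.61 to 1.28). Whether these ratios differ between the libraries was not tested.

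Of the other members, 7 were at least 1.5-fold lower in cluster 9 in each library, beside 23.1% of all genes in Fcmr+/+ and 18.9% in Fcmr-/- cells. Trim28, Trim47, Trim37, Trim59 and Trim32 were among them in both libraries. In Fcmr+/+ cells Trim37 rested on 7 UMIs in cluster 9, Trim59 on 8 and Trim32 on 6, the last with an interval that included 0 (-1.10, -2.55 to 0.03). Leaving out the cells carrying markers of other types kept 125 and 324 cells of cluster 9. Trim59 was then at -0.51 and -0.23, and Trim32 at -0.71 (-2.60 to 0.67) and -1.11 (-2.44 to -0.04). Trim37, which acts at centrosomes, was at 2.52 and 8.99 CPM in Fcmr+/+ cells (-1.84, -3.15 to -0.79) and at 3.38 and 9.76 CPM in Fcmr-/- cells (-1.53, -2.23 to -0.91). Trim13 was at 16.6 and 10.6 CPM in Fcmr+/+ (0.64, 0.19 to 1.07) and at 14.2 and 9.66 CPM in Fcmr-/- cells (0.55, 0.22 to 0.87). Without the cells carrying markers of other types it was at 0.94 (0.34 to 1.49) and 0.35 (-0.15 to 0.81).

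**Figure D4:**
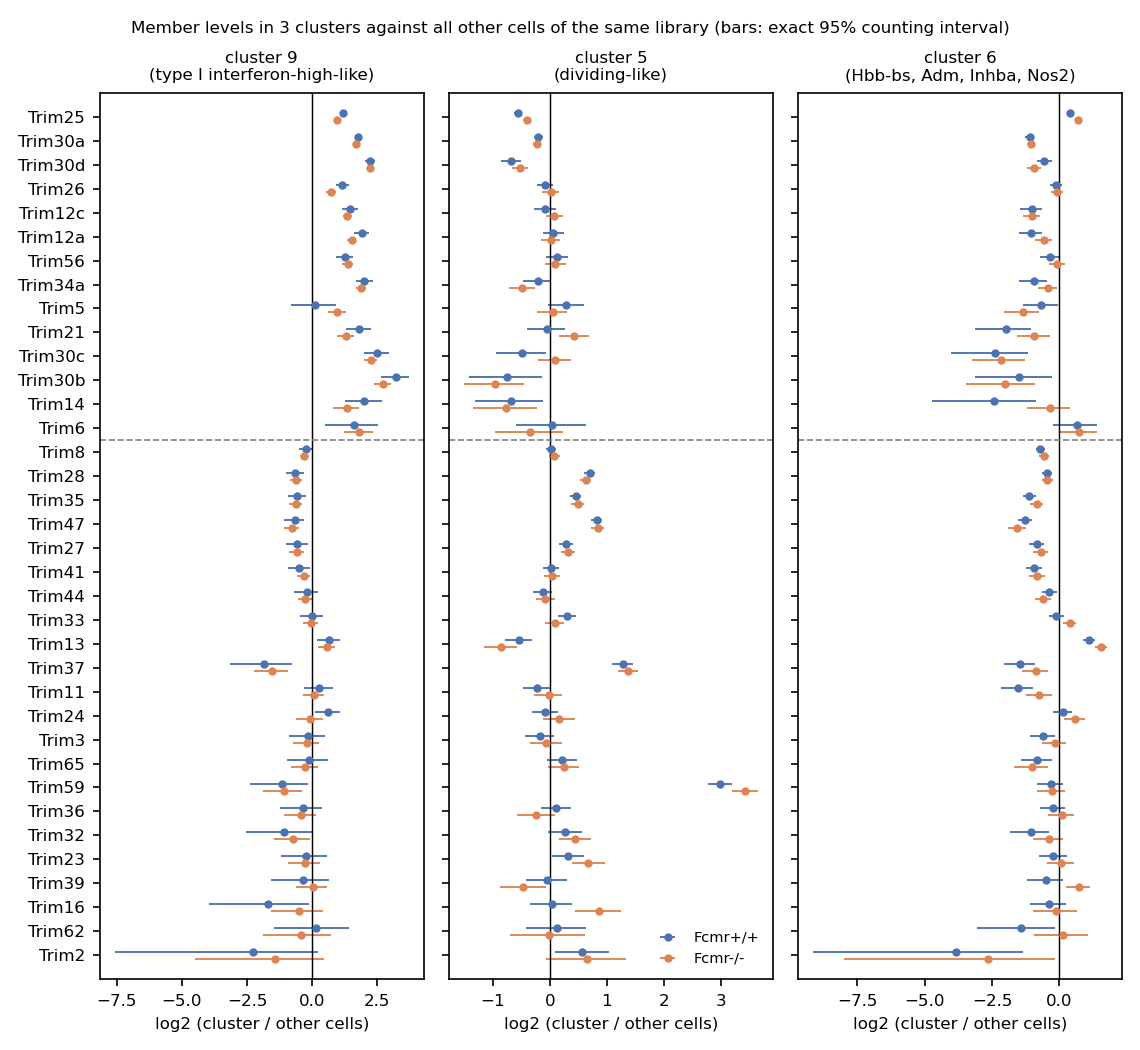
Points are log2 ratios of each member's CPM in clusters 9, 5 and 6 to its CPM in all other cells of the same library (Fcmr+/+ blue, Fcmr-/- orange), with exact 95% counting intervals and a separate axis for each panel. In cluster 9 every interferon-responsive member (above the dashed line) lies above 0, in cluster 5 Trim59 stands out at 2.99 and 3.43, and in cluster 6 Trim13 lies at 1.11 and 1.56.

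In the dividing-like cluster 5 Trim59 and Trim37 stood out, both outside the interferon-responsive group. As a group the 22 others were near the background: 6 of them (27.3%) had their highest CPM there, beside 23.8% of all genes. Trim59 was at 23.2 CPM there and 2.93 CPM in other Fcmr+/+ cells (log2 ratio 2.99, 2.78 to 3.19), and at 24.8 and 2.29 CPM in Fcmr-/- cells (3.43, 3.20 to 3.66). Trim37 was at 17.3 and 7.12 CPM (1.28, 1.10 to 1.46) and at 19.7 and 7.62 CPM (1.37, 1.19 to 1.55). Together with Trim47 (0.82 and 0.85) and Trim28 (0.70 and 0.63), these were the 4 of 22 others past 1.5-fold in Fcmr+/+ cells, beside 12.9% of all genes. In Fcmr-/- cells 7 of 22 passed it, beside 14.2% of all genes: the same 4 with Trim16, Trim23 and Trim2. Trim2 rested on 23 UMIs in cluster 5, with an interval that included 0 (0.66, -0.07 to 1.35). At least 1.5-fold lower in Fcmr-/- cells was 1 of the 22 (Trim13, -0.85, -1.15 to -0.57), beside 5.67% of all genes. In Fcmr+/+ cells none was, beside 5.12%.
Among the interferon-responsive members none was at least 1.5-fold higher in cluster 5. At least 1.5-fold lower in Fcmr+/+ cells were 3 of 14 (Trim30b, Trim14 and Trim30d), beside 5.12% of all genes. In Fcmr-/- cells 2 of 14 were (Trim30b and Trim14), beside 5.67%. Markers of T and NK cells summed to 0.229 CPM in the Fcmr+/+ and 65.4 CPM in the Fcmr-/- cells of this cluster. Without the cells that carried markers of other types, Trim59 was at 2.93 and 3.56 on the log2 scale and Trim37 at 1.16 and 1.58.

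Cluster 6 had the most UMIs of hypoxic markers but was led by the hemoglobin genes Hbb-bs and Hba-a2, with Adm, Inhba and Nos2 also among its leading genes, and is left unnamed. Trim13 was at 21.6 CPM there and 10.0 CPM in other Fcmr+/+ cells (log2 ratio 1.11, 0.87 to 1.34), and at 26.1 and 8.90 CPM in Fcmr-/- cells (1.56, 1.32 to 1.78). Trim25 was at 176 and 134 CPM (0.39, 0.31 to 0.47) and at 214 and 132 CPM (0.69, 0.62 to 0.77). Most genes were lower there, inside and outside the family. The median log2 ratio of all genes was -0.35 in Fcmr+/+ and -0.23 in Fcmr-/- cells. That of the interferon-responsive members was -0.99 and -0.75, and that of the others -0.61 and -0.40. Of 14 interferon-responsive members 9 and 7 were at least 1.5-fold lower, and of 21 others 11 and 8, beside 33.5% and 28.7% of all genes. At least 1.5-fold higher were 1 and 2 of the interferon-responsive members and 1 and 2 of the others, beside 7.64% and 10.8% of all genes.
The 2 members of the same chromosome 7 cluster at the extremes were Trim30c (-2.39 and -2.17) and Trim6 (0.65 and 0.74). Trim30c rested on 5 and 10 UMIs in cluster 6, with intervals of -4.02 to -1.15 and -3.23 to -1.28. Those of Trim6 were -0.23 to 1.42 and 0.01 to 1.39. Median UMIs per cell in cluster 6 were 10702 and 7918, and melanoma markers summed to 76.9 and 80.0 CPM. Trim13 was at 1.05 and 1.37 without the cells carrying markers of other types.

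A few members peaked elsewhere. Trim35 was at 58.0 CPM in cluster 11, led by Cdkn1c, Adm and Dct, against 18.1 CPM in cluster 6. In cluster 11 against other cells it had log2 ratios of 0.68 (0.54 to 0.81) in Fcmr+/+ and 1.04 (0.82 to 1.24) in Fcmr-/- cells, and of 0.87 and 1.21 without the cells carrying markers of other types. Melanoma markers summed to 77.0 CPM in the Fcmr+/+ and 370 CPM in the Fcmr-/- cells of that cluster. Trim2 was at 2.76 CPM in cluster 4, led by Gpr34, Tfrc and Marco, and at 0.132 CPM, from only 2 UMIs, in cluster 6. Cluster 4 held 1174 Fcmr+/+ and 383 Fcmr-/- cells. The levels that varied least were those of Trim33, 13.8 to 18.6 CPM, and Trim39, 3.20 to 4.88 CPM.

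The library ratio was then taken within each of the 10 clusters with at least 50 cells of each library, over the 11 to 14 interferon-responsive members that reached 1 CPM there. The median log2 ratio of the interferon-responsive members was above 0 in all 10, from 0.02 in cluster 3 to 0.64 in cluster 6. That of the other members ran from -0.07 to 0.19, and that of all genes from -0.02 to 0.09. In cluster 3 the order was the opposite of the other 9: 7 of 14 interferon-responsive members were above 0, and the median of the other members, 0.09, was the higher one. The ratio of Trim30a was above 0 in all 10 clusters, from 0.11 (cluster 4) to 0.62 (cluster 6). Counting intervals are not given for the ratios within clusters, so small ones may lie within counting error. Trim12c ran from -0.21 in cluster 2 to 1.10 in cluster 7, and Trim30d from -0.43 in cluster 3 to 0.86 in cluster 5. Cluster 3 held 63 Fcmr+/+ cells. Within cluster 9 itself the median was 0.37, with 11 of 14 above 0, while the type I interferon list stood at 18891 CPM in Fcmr+/+ and 18155 CPM in Fcmr-/- cells. The list was not level in every cluster: it stood at 4269 and 5450 CPM in cluster 1 and at 2605 and 3719 CPM in cluster 5, where the TRIM medians were 0.39 and 0.52. Its part in these medians was not tested, and the type II interferon list is not given by library within the clusters.

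Cells were also ranked by their share of UMIs on the type I interferon list and divided into 5 bins of equal size over both libraries. The lowest bin held 26.0% of Fcmr+/+ and 15.2% of Fcmr-/- cells, and the top bin 13.4% and 25.3%. The interferon-responsive members had a median log2 ratio of the top to the lowest bin of 1.40 in Fcmr+/+ and 1.86 in Fcmr-/- cells, with all 14 above 0 in each. The other members had medians of -0.11 and -0.10, and all genes of -0.04 and -0.04. Trim30a went from 33.9 through 53.7, 75.5 and 109 to 169 CPM in Fcmr+/+ cells, and from 43.2 through 60.6, 87.1 and 121 to 216 CPM in Fcmr-/- cells. In each library 10 of the 14 were higher at every step, and none of the 22 others did.

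Trim30c had the largest ratios, from 0.574 to 10.2 CPM in Fcmr+/+ (log2 ratio 4.15, 3.44 to 4.94) and from 1.14 to 13.9 CPM in Fcmr-/- cells (3.61, 2.95 to 4.36). Trim25 had a small one, from 119 to 202 CPM (0.77, 0.69 to 0.84) and from 132 to 168 CPM (0.35, 0.28 to 0.42). Trim8 stayed between 52.1 and 61.2 CPM in Fcmr+/+ and between 46.2 and 52.8 CPM in Fcmr-/- cells. A bin is a range of a score, not a cell type.

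**Figure D5:**
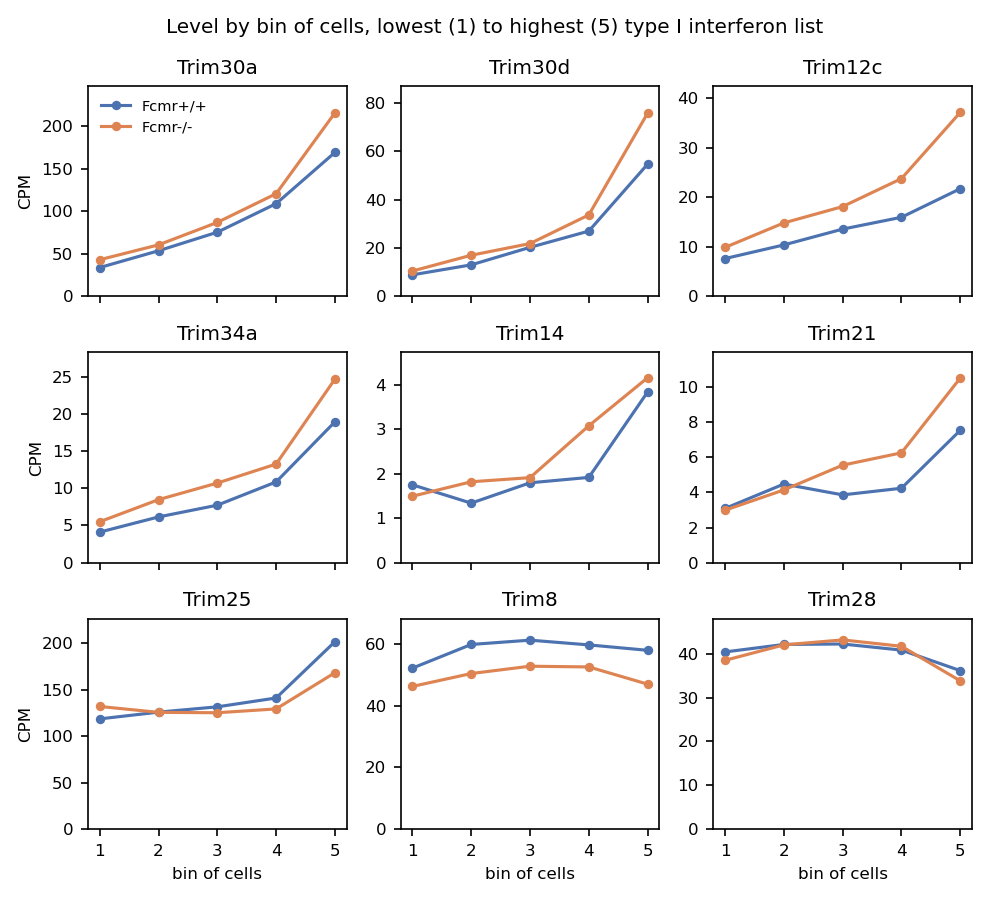
Lines give the CPM of 9 members (each panel with its own axis from 0) in 5 bins of cells ordered by the type I interferon list, Fcmr+/+ in blue and Fcmr-/- in orange. Trim30a, Trim30d, Trim12c and Trim34a are higher at every step in both libraries, whereas Trim8 and Trim28 are nearly flat and Trim25 is higher mainly in the top bin.

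Within the bins, which hold the type I interferon list at nearly equal levels in the 2 libraries (10747 and 10776 CPM in the top one), the median library ratio of the interferon-responsive members was 0.19 (12 members), 0.21, 0.22, 0.41 and 0.42 (14 members each) from the lowest to the top. The other members had medians of -0.18 to 0.01. The list of 30 type II interferon genes was not level within them: it stood at 1782 and 1592 CPM in the lowest and at 4495 and 6954 CPM in the top bin. Its part in the ratios was not tested.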

How the data were processed

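The files the authors deposited are matrices of unnormalized UMI counts from Cell Ranger, with GRCm38 (mm10) as the build per the labels. The submitters' processing notes also name Seurat 2.1.0. Here cells with 200 to 7000 genes and at most 30% mitochondrial UMIs were kept, as in the study, along with genes found in 3 or more cells. UMIs were summed per library and group of cells, and CPM and log2 ratios without a pseudocount were computed in Python 3.11.15 (scipy 1.17.1). Intervals are exact 95% Poisson or conditional binomial (Clopper-Pearson) intervals, PCR and sampling of mice are outside them, and for a gene without UMIs the level of 3 counts is given. Total depth was 128408544 and 124630621 UMIs in the cells kept. Ratios were compared for genes with a mean of at least 1 CPM over the 2 groups, and a gene was called at 1.5-fold. Doublets were not removed, and leaving out the deepest 5% of cells was an alternative. Cells carrying markers of other types were those with a UMI of any T and NK, dendritic, B, neutrophil or stromal marker or at least 5 UMIs of melanoma markers. A single UMI thus sufficed for most markers, and leaving such cells out kept only 2942 of 6352 Fcmr+/+ and 3860 of 7999 Fcmr-/- cells. Not every cell left out need be of another type. Clusters came from Seurat 5.3.0 in R 4.3.3 (1329 variable genes after 10 TRIM genes were left out, 10 principal components, 30 neighbors, resolution 0.8). Coordinates are from GENCODE on GRCm38 and promoters from RefSeq on GRCm38.p6. The computation of the ratio and its interval was checked on simulated Poisson counts. These hold no variation between cells, mice or libraries, so the check covers the computation only.

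Every member was to be accounted for, with values for those of at least 5 CPM and those past 1.5-fold at 1 CPM or more. The members, the marker lists and the interferon lists were chosen with earlier results of these data known, and the grouping into interferon-responsive and other members came from general knowledge. The alternatives covered pseudocounts, filters, scaling, cell selection, thinning to 5000 UMIs, clustering settings and the binning of cells. One gene of the partner list is counted but not reported by name here.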

Additional observations from a re-analysis of the deposited data

How the results depend on the processing

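Over 68 alternatives, no median changed sign. A median was said to stay if it lay between limits drawn from the counting intervals of the single members, and a count if it stayed within 1.5 times. By this rule 54 values stayed. These limits are a wide tolerance and not an interval of the median. For the median library ratio within clusters, 0.38, they were -0.12 and 0.93. The library median of the interferon-responsive members (0.57) was 0.48 without cells carrying markers of other types and 0.28 over the 5 members outside the chromosome 7 cluster. The 6 members at least 1.5-fold higher became 0 at a fold of 2. The 2 lower ones became 1 at a fold of 2, 0 with 1 CPM added or with a mean of at least 5 CPM required, and 4 with only 10 UMIs required. The median of cluster 9 against other cells was 1.11 in Fcmr+/+ and 0.52 in Fcmr-/- cells when clustered without interferon genes, and in Fcmr-/- cells 0.71 at resolution 0.4 and 0.82 with 20 principal components. The median of the top against the lowest bin was 0.90 in Fcmr+/+ and 1.32 in Fcmr-/- cells with the type II interferon list, and 1.37 in Fcmr-/- cells with 3 bins. Keeping TRIM genes among the variable genes, and leaving cells with markers of other types out of the cluster 9 contrast, were added after seeing the data and moved no value beyond its limits. The cause of these shifts was not tested.

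No paired analysis was possible because there is 1 library per genotype, and for the same reason no replicate was left out. Depth limits the scarce members: those with a mean under 5 CPM had intervals over 0.3 wide on the log2 scale.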

Other observations

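Some members outside the interferon-responsive group had cluster ratios of unlike size or sign in the 2 libraries, and whether these differ was not tested. Trim39 in cluster 6 against other cells was at 2.64 and 3.73 CPM in Fcmr+/+ (log2 ratio -0.50, -1.21 to 0.13) and at 6.57 and 4.01 CPM in Fcmr-/- cells (0.71, 0.25 to 1.15). Without the cells carrying markers of other types it was at -0.43 (-1.41 to 0.42) and 0.60 (-0.04 to 1.18). Trim16 in cluster 5 was at 3.48 and 3.40 CPM in Fcmr+/+ (0.03, -0.34 to 0.39) and at 3.63 and 2.00 CPM in Fcmr-/- cells (0.86, 0.44 to 1.26), and without those cells at 0.31 (-0.26 to 0.83) and 1.51 (0.93 to 2.07). Within clusters, the library ratio of Trim25 ran from -0.24 in cluster 9 to 0.39 in cluster 10, around a value near 0 over all cells. These members and clusters were picked out after their values were seen.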
